A study of Danio rerio with 6 samples.

Results

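The slc30 genes of zebrafish, Danio rerio, were examined in the tail fin blastema, the mass of proliferating cells that regrows a cut fin. All entries of the deposited count table named for a listed slc30 member were taken, alone or followed by a numeric suffix. This gave 11 entries for 10 symbols among 53709 entries. The symbols were slc30a1a, slc30a1b, slc30a2, slc30a4, slc30a5, slc30a6, slc30a7, slc30a8, slc30a9 and slc30a10, and slc30a7 had a second entry, slc30a7_1. Each of the 10 symbols also occurs once in the RefSeq gene table of the GRCz12tu assembly, which holds 10 genes with slc30 symbols.

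Male fish had their tail fin amputated and the blastema was taken 4 days later. In the ZnO group, each fish was kept in 150 mL of water containing 2 mg/L of zinc oxide nanoparticles prepared using propolis extract. In the control group, each was kept in the same volume of distilled water. Each group had 3 libraries of messenger RNA, and no strain, age or genotype was stated. No group received propolis or dissolved zinc alone, so the parts of particle, dissolved zinc and extract cannot be told apart. How fish relate to libraries is not given either, and a p-value here reflects only how far these samples spread, which may be technical.

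Zinc transporters of vertebrates fall into 2 families with largely opposite directions. Most SLC30 proteins, also called ZnT, move zinc out of the cytosol, across the plasma membrane or into organelles and vesicles. SLC39 proteins, also called ZIP, move zinc into the cytosol. Metallothioneins bind zinc inside the cell. In mammals the zinc-sensing transcription factor MTF-1 activates the metallothionein genes and SLC30A1 when zinc is in excess. The comparison therefore bears on whether transcripts of the zinc exporters differed in regenerating fins of fish kept with zinc oxide.

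Libraries held 26624174 to 31712994 counts, so 1 count was worth 0.0316 to 0.0383 CPM, the depth-relative level scaled by TMM. Markers of blastema and fin fold were present: all 8 with an entry, of 9 written, were tested. Their summed levels were 7105 to 8180 CPM in ZnO and 4825 to 7353 CPM in control libraries. None of the 8 passed by edgeR, and all had positive log2 fold changes (median 0.18). Of 8 neutrophil markers, 4 fell in ZnO by edgeR (csf3r, ncf4, mmp25b and coro1a), where 0.428% of all tested entries passed in either direction. All 8 had negative log2 fold changes, with sums of 97.7 to 156 CPM in ZnO and 375 to 445 CPM in control. The largest part of the control sums was mpx, at 286, 227 and 185 CPM in control libraries 1 to 3. It stood at 60.3, 4.71 and 54.2 CPM in ZnO libraries 1 to 3 and did not pass (adjusted p = 0.264 by edgeR). None of 7 macrophage markers passed, all 7 were negative, and sums were 1534 to 2117 CPM in ZnO and 2093 to 2728 CPM in control. The largest part of these sums was cd74a, at 1508 ± 235 CPM in ZnO and 1958 ± 267 CPM in control (SD, n = 3). None of 8 erythrocyte markers passed by edgeR and 3 did by DESeq2, which called 4.51% of all entries it adjusted. All 8 were positive (median log2 fold change 1.59), and their sums were 139 to 373 CPM in ZnO and 24.8 to 141 CPM in control. None of these markers was at 0 in all libraries. In bulk tissue, fewer cells of a type and less RNA per cell cannot be told apart. Clock genes differed between libraries: an index of 5 of them (nr1d1, ciarta, per3, per1a and per1b; mean log2 CPM) was 4.71, 0.38 and 0.08 in ZnO libraries 1 to 3, and 6.23, 5.64 and 4.69 in control libraries 1 to 3. ZnO 2 and ZnO 3 stood far below the other libraries, and the hour of sampling is not given in the sources used here.

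No zinc exporter passed the test. Of the 11 entries, 10 had enough counts to be tested and 0 had an adjusted p under 0.05 by edgeR's quasi-likelihood test over all entries, where 0.428% of the 25962 tested entries did. DESeq2 also called 0, where it called 4.51% of the entries it adjusted. At an unadjusted edgeR p under 0.05 stood 1 exporter entry of 10, slc30a1a, against 15.9% of all tested entries. The 3 ZnO libraries did not overlap with the 3 controls for 2 of the 10, slc30a1a and slc30a7_1, both lower, against 22.5% of all tested entries. Neither share was above the background. Of the 10 entries, 4 lay above 0 and 6 below it in log2 fold change, and the median was -0.13 beside 0.01 over all tested entries.

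**Figure D1:**
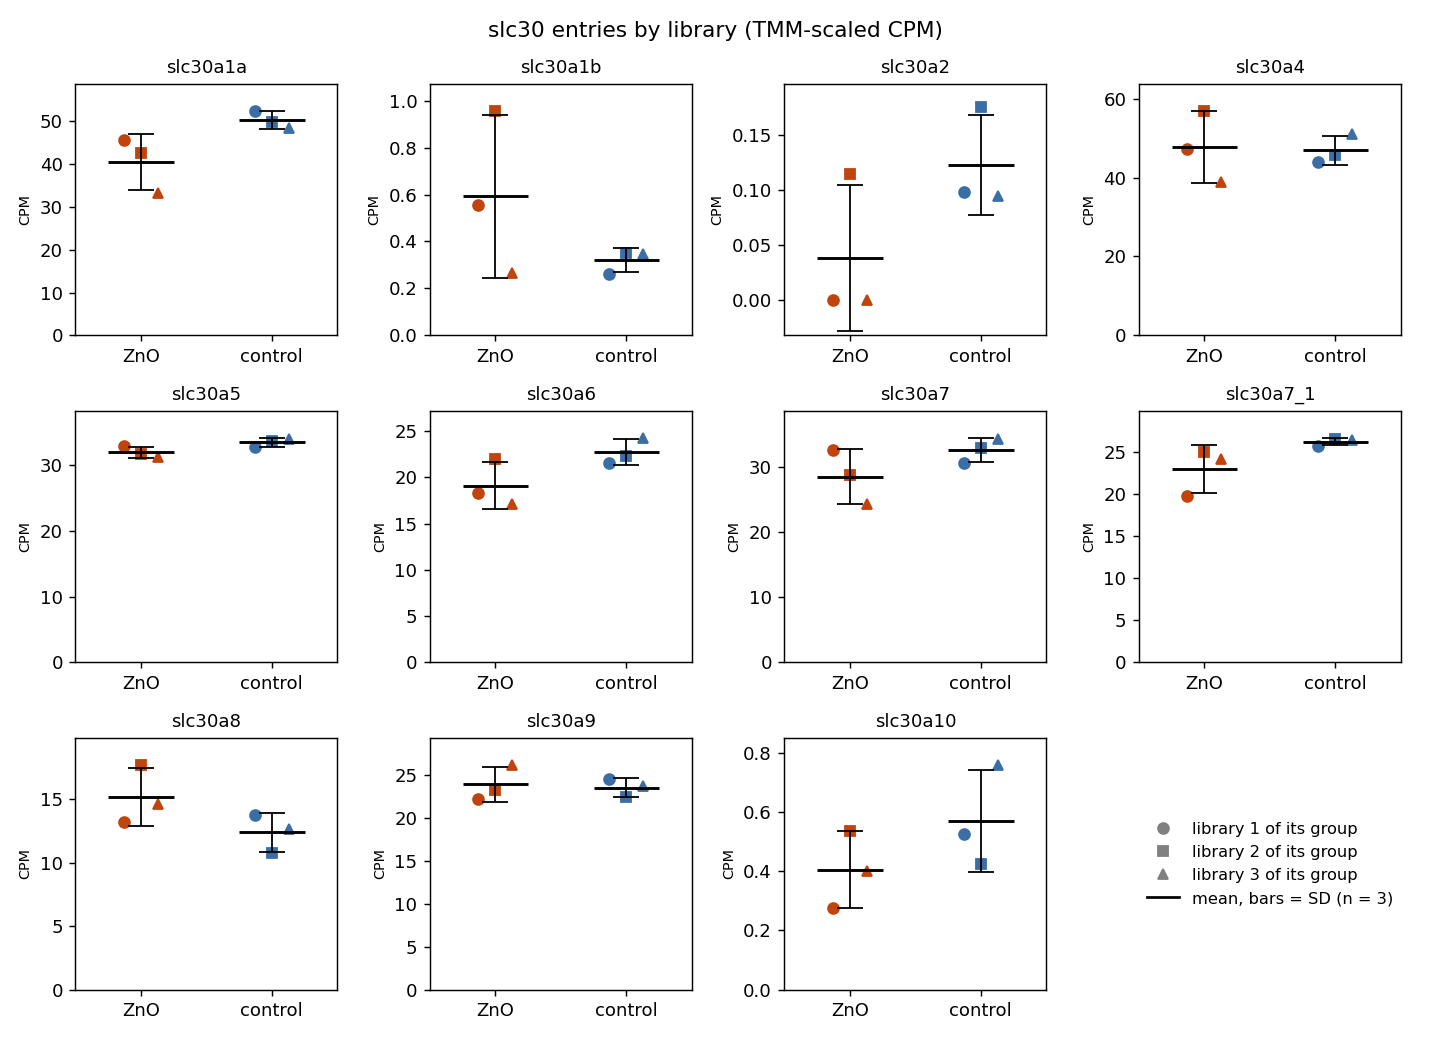
Levels of the 11 slc30 entries in each library, in TMM-scaled CPM, each panel on its own linear axis. Points are libraries, horizontal lines group means and bars SD (n = 3). ZnO libraries of slc30a1a lie between 33.3 and 45.7 CPM, below the controls at 48.4 to 52.5 CPM, while in most panels the groups overlap.

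Among the exporters of the plasma membrane, slc30a1a encodes a ZnT1 protein, which carries zinc out of the cell. It stood at 45.7, 42.5 and 33.3 CPM in ZnO libraries 1 to 3, and at 52.5, 49.8 and 48.4 CPM in control libraries 1 to 3. Each ZnO library was below each control, and ZnO 3 was the lowest. The group means were 40.5 ± 6.45 CPM in ZnO and 50.2 ± 2.09 CPM in control (SD, n = 3 each). The log2 fold change was -0.31 ± 0.14 (SE; edgeR unadjusted p = 0.0488, adjusted p = 0.312, range over alternatives 0.222 to 0.979). This is 0.806-fold, with a 95% interval of 0.651 to 0.999-fold. The difference did not pass the test over all entries. Without ZnO 3 the log2 fold change was -0.19, and with the clock genes as a covariate it was -0.07 ± 0.20 (SE). ZnO 2 and ZnO 3 had far lower clock indices than any control, so this covariate is largely confounded with group. Here and below, fits with it cannot tell a clock difference from a group difference.

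slc30a1b is the other zebrafish copy of the mammalian SLC30A1. It had few counts: 16, 25 and 8 in ZnO libraries 1 to 3, and 8, 10 and 11 in control libraries 1 to 3. These correspond to 0.593 ± 0.347 CPM in ZnO and 0.321 ± 0.0504 CPM in control (SD, n = 3). ZnO 1 and ZnO 2 were above all controls and ZnO 3 was not. The log2 fold change was 0.87 ± 0.53 (SE; adjusted p = 0.473 by edgeR), and the 95% interval of 0.787 to 4.23-fold shows how little this depth settles. ZnO 2 carried much of it, and without that library the log2 fold change was 0.34. The 2 copies thus had log2 fold changes of opposite sign, neither past the test, and the difference between them was not tested.

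slc30a10 encodes a plasma membrane transporter that exports manganese in mammals and in zebrafish. It had 8, 14 and 12 counts in ZnO libraries 1 to 3, and 16, 12 and 24 in control libraries 1 to 3. The groups overlapped, at 0.405 ± 0.130 CPM in ZnO and 0.569 ± 0.172 CPM in control (SD, n = 3). The log2 fold change was -0.50 ± 0.44 (SE; adjusted p = 0.636 by edgeR), with a 95% interval of 0.353 to 1.42-fold. At this depth the interval held a 2-fold lower level as well as an equal one, but not a 2-fold higher one.

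Of the exporters of the early secretory pathway, slc30a5 and slc30a6 encode partners of a ZnT5-ZnT6 complex that loads zinc into enzymes such as alkaline phosphatase on their way to the cell surface, and slc30a7 encodes a Golgi transporter with an overlapping task. slc30a5 itself stood at 32.9, 31.6 and 31.3 CPM in ZnO libraries 1 to 3, and at 32.7, 33.7 and 34.0 CPM in control libraries 1 to 3. Its coefficient of variation was 2.71% in ZnO and 2.03% in control. The log2 fold change was -0.07 ± 0.10 (SE; adjusted p = 0.789 by edgeR), and the 95% interval ran from 0.817 to 1.11-fold. It was the narrowest interval among the members tested.

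slc30a6 stood at 18.3, 22.0 and 17.1 CPM in ZnO libraries 1 to 3, and at 21.5, 22.3 and 24.3 CPM in control libraries 1 to 3. ZnO 1 and ZnO 3 were below all controls, and ZnO 2 lay among them. Means were 19.1 ± 2.56 CPM in ZnO and 22.7 ± 1.42 CPM in control (SD, n = 3), with a log2 fold change of -0.25 ± 0.13 (SE; adjusted p = 0.408 by edgeR). The 95% interval ran from 0.682 to 1.04-fold. Point estimates of both partners of the complex lay below 0 with overlapping intervals, but 6 of the 10 tested entries lay below 0. A joint change of the partners was not tested. Without ZnO 2 the log2 fold change of slc30a6 was -0.38, without ZnO 3 -0.17.

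slc30a7 had 2 entries in the table. The first, slc30a7, was at 32.6, 28.8 and 24.3 CPM in ZnO libraries 1 to 3, and at 30.6, 32.9 and 34.4 CPM in control libraries 1 to 3 (log2 fold change -0.19 ± 0.13, SE; adjusted p = 0.529 by edgeR). The second, slc30a7_1, was at 19.8, 25.1 and 24.3 CPM in ZnO, and at 25.8, 26.6 and 26.5 CPM in control (log2 fold change -0.19 ± 0.12, SE; adjusted p = 0.503 by edgeR). The ZnO libraries lay below the controls for the second entry and overlapped with them for the first. How reads were divided between the entries is not given in the sources used here, so each is less certain than their sum. The sum was 52.4, 53.9 and 48.6 CPM in ZnO libraries 1 to 3, and 56.4, 59.5 and 60.9 CPM in control libraries 1 to 3. Each ZnO library thus lay below each control in the sum, while 22.5% of all tested entries did not overlap in either direction. Means of the sum were 51.6 ± 2.76 CPM in ZnO and 58.9 ± 2.29 CPM in control (SD, n = 3). In a fit on summed entries slc30a7 had a log2 fold change of -0.19 (adjusted p = 0.364 by edgeR).

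The division of counts between the slc30a7 entries varied among the ZnO libraries and not between the groups as a whole. The first entry held 62.2%, 53.4% and 50.03% of the joint counts in ZnO libraries 1 to 3, and 54.3%, 55.3% and 56.4% in control libraries 1 to 3. The group means were 55.2% ± 6.26 in ZnO and 55.3% ± 1.07 in control (SD, n = 3). For ZnO 1 the exact 95% binomial interval was 59.7 to 64.6%, above the intervals of the other libraries, which reached at most 58.7% (control 3). For ZnO 3 it was 47.4 to 52.6%, below those of ZnO 1, control 2 and control 3. These intervals cover counting error only. The estimates of both entries therefore differed by library: without ZnO 1, slc30a7 had a log2 fold change of -0.31 and slc30a7_1 one of -0.10.

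**Figure D2:**
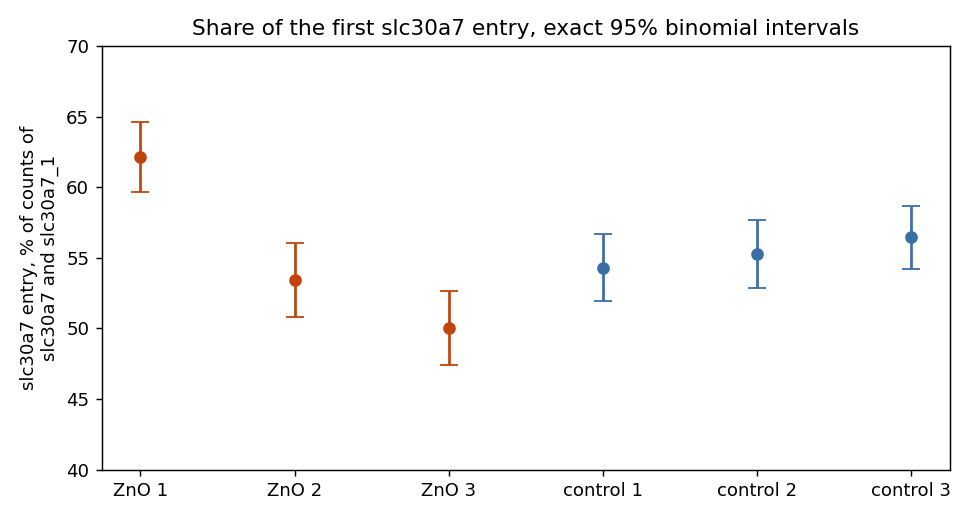
Share of the slc30a7 entry in the joint counts of slc30a7 and slc30a7_1, in percent, per library (vertical axis from 40 to 70%). Bars are exact 95% binomial intervals. ZnO 1 is at 62.2% and ZnO 3 at 50.03%, while the controls lie between 54.3 and 56.4%.

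Among the vesicular members, slc30a4 encodes a transporter of endosomes and vesicles, and its loss in mice gives zinc-poor milk. It stood at 47.2, 57.0 and 38.9 CPM in ZnO libraries 1 to 3, and at 43.9, 45.8 and 51.1 CPM in control libraries 1 to 3. The ZnO libraries held both the highest and the lowest value. Means were 47.7 ± 9.08 CPM in ZnO and 46.9 ± 3.70 CPM in control (SD, n = 3), with a log2 fold change of 0.02 ± 0.15 (SE; adjusted p = 0.958 by edgeR). The sign turned when control 1 or ZnO 2 was left out, to -0.02 and -0.14.

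slc30a8 encodes the transporter that fills insulin granules of pancreatic beta cells with zinc in mammals. It was transcribed in the fin, at 13.2, 17.7 and 14.6 CPM in ZnO libraries 1 to 3, and at 13.8, 10.7 and 12.6 CPM in control libraries 1 to 3. ZnO 2 and ZnO 3 were above all controls, and ZnO 1 lay among them. Means were 15.2 ± 2.29 CPM in ZnO and 12.4 ± 1.53 CPM in control (SD, n = 3), with a log2 fold change of 0.29 ± 0.16 (SE; adjusted p = 0.416 by edgeR) and a 95% interval of 0.953 to 1.58-fold. The insulin gene ins had 0 counts in each ZnO library and 1, 2 and 1 counts in the controls, so the main transcript of beta cells was at or near 0. Of the 5 islet genes listed, 1 had enough counts to be tested, pcsk1. It stood at 4.46 ± 0.682 CPM in ZnO and 4.79 ± 0.899 CPM in control (SD, n = 3). Pigment cell markers had sums of 56.2, 126 and 90.4 CPM in ZnO libraries 1 to 3, and 57.0, 40.5 and 49.4 CPM in control libraries 1 to 3. Their part in the slc30a8 values was not tested. Of 6 pigment markers, 5 had positive log2 fold changes, 0 passed by edgeR and 3 by DESeq2. Over all entries, edgeR called 0.428% of those tested and DESeq2 4.51% of those it adjusted. Without ZnO 2 the log2 fold change of slc30a8 was 0.15, and with the clock covariate 0.09 ± 0.25 (SE).

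slc30a2, whose mammalian counterpart secretes zinc through vesicles, was near the limit of detection. It had 0, 3 and 0 counts in ZnO libraries 1 to 3, and 3, 5 and 3 counts in control libraries 1 to 3. It did not pass the filter on low counts and was not tested. A limit of 3 counts per library corresponds to between 0.0949 and 0.115 CPM here, and only control 2 exceeded 3 counts.

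slc30a9 encodes a mitochondrial zinc transporter in mammals. It stood at 22.2, 23.3 and 26.1 CPM in ZnO libraries 1 to 3, and at 24.5, 22.4 and 23.7 CPM in control libraries 1 to 3. The groups overlapped fully, at 23.9 ± 2.04 CPM in ZnO and 23.5 ± 1.07 CPM in control (SD, n = 3). The log2 fold change was 0.02 ± 0.12 (SE; adjusted p = 0.949 by edgeR), with a 95% interval of 0.846 to 1.22-fold. Its sign turned in 4 of 16 alternatives.

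The size of change that these libraries can bound differed among the members. The 95% intervals of 8 of the 10 tested entries lay within a 2-fold change in either direction, and those of 6 lay within 1.5-fold. slc30a1b and slc30a10, at under 1 CPM, had intervals reaching beyond 2-fold, and those of slc30a1a and slc30a8 reached beyond 1.5-fold on 1 side. A p that misses the threshold does not show equal levels.

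**Figure D3:**
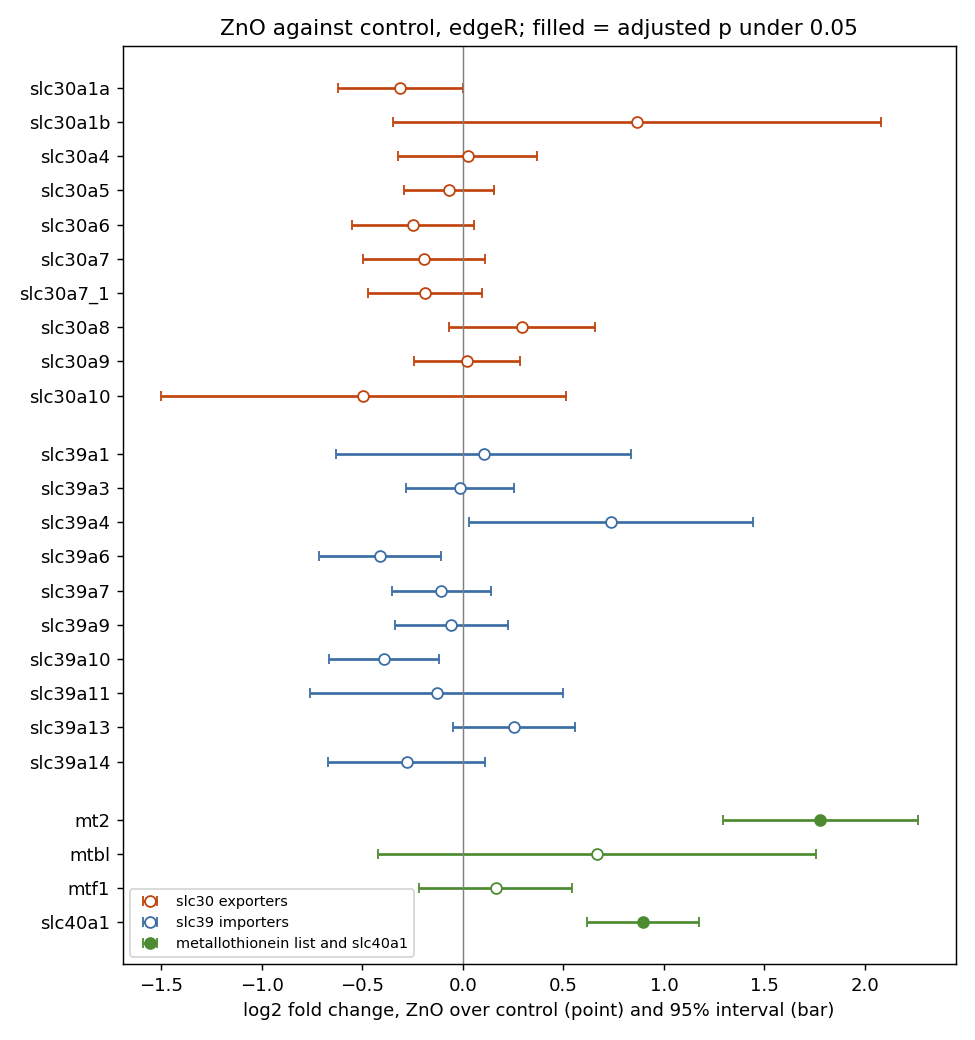
Log2 fold change of ZnO over control (points) with 95% intervals (bars) from edgeR for the tested slc30 exporters, slc39 importers and, below, mt2, mtbl, mtf1 and slc40a1. Filled points passed the test over all entries. Only mt2 at 1.78 and slc40a1 at 0.90 are filled, and no exporter or importer is.

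The ZnO libraries were less alike than the controls across the family. The coefficient of variation was larger in ZnO than in control for each of the 10 tested entries, and for 56.6% of all tested entries. It was 15.9% in ZnO and 4.15% in control for slc30a1a, 19.0% and 7.89% for slc30a4, and 12.3% and 1.72% for slc30a7_1. As given above, the division of counts between the slc30a7 entries varied among the ZnO libraries. Their sum stood at 51.6 ± 2.76 CPM in ZnO and 58.9 ± 2.29 CPM in control (SD, n = 3). These SDs lie closer together than those of slc30a7_1 alone, 2.83 and 0.452 CPM. For other entries the groups were close, at 32.0% and 30.3% for slc30a10, 15.1% and 12.3% for slc30a8, and 2.71% and 2.03% for slc30a5. The entries share the same libraries, and 2 of them are of slc30a7, so they are not independent. ZnO 3 was the lowest of the 6 libraries for 5 of the 10 entries, slc30a1a, slc30a4, slc30a5, slc30a6 and slc30a7, and ZnO 2 the highest for 3, slc30a1b, slc30a4 and slc30a8. Summed over the family, levels were 233, 249.6 and 210.5 CPM in ZnO libraries 1 to 3, and 246, 245 and 256 CPM in control libraries 1 to 3, a mean of 231 ± 19.6 CPM in ZnO and 249 ± 6.06 CPM in control (SD, n = 3). ZnO 2 lay within the range of the controls and the other ZnO libraries below it.

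slc30a1a and the metallothionein gene mt2 had log2 fold changes of opposite sign. The other copy, slc30a1b, had few counts and a log2 fold change with the sign of mt2 (0.87 ± 0.53, SE), not past the test. mt2 rose to 13.1, 20.8 and 15.6 CPM in ZnO libraries 1 to 3, against 5.58, 4.86 and 3.98 CPM in control libraries 1 to 3 (log2 fold change 1.78 ± 0.21, SE; adjusted p = 0.0249 by edgeR). That call was lost in each fit without 1 library other than ZnO 1, where the adjusted p ran from 0.0526 to 0.0867. In the fits without 1 library mt2 had log2 fold changes of 1.56 to 1.91. The value was 1.495 with the clock covariate (adjusted p = 0.451 by edgeR) and 1.45 without ZnO 2 and ZnO 3 (adjusted p = 0.243 by edgeR). The ratio of slc30a1a to mt2 counts, which needs no scaling between libraries, was 3.49, 2.04 and 2.14 in ZnO libraries 1 to 3, and 9.41, 10.2 and 12.2 in control libraries 1 to 3. The groups could not overlap in this ratio, since each ZnO library was lower in slc30a1a and higher in mt2 than each control. It therefore adds no separate evidence. With log2 fold changes of -0.31 for slc30a1a and 1.78 for mt2, most of the separation came from mt2. mtf1, which encodes MTF-1, stood at 6.82 ± 0.773 CPM in ZnO and 6.09 ± 0.640 CPM in control (SD, n = 3; log2 fold change 0.16 ± 0.17, SE; adjusted p = 0.686 by edgeR), and its log2 fold change was between 0.043 and 0.099 without control 1, without ZnO 2, without ZnO 2 and ZnO 3, and with the clock covariate. The second table entry of the gene, mt2_1, stood at 5.24 ± 0.909 CPM in ZnO and 1.61 ± 0.656 CPM in control and did not pass by edgeR (adjusted p = 0.0675), though it did by DESeq2 (8.62e-05). mtbl, the remaining tested gene of this list, was at 2.08 ± 1.09 CPM in ZnO and 1.30 ± 0.713 CPM in control (adjusted p = 0.542 by edgeR). Its second entry, mtbl_1, had a log2 fold change of 0.52 ± 0.72 (SE, adjusted p = 0.777 by edgeR). Thus 1 of 3 tested genes of the metallothionein list passed by edgeR, against 0.428% of all tested entries.

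slc30a1a was lowest in ZnO 2 and ZnO 3, the libraries in which the clock genes were lowest too. The leukocyte gene coro1a, an actin regulator, stood at 25.8, 23.3 and 21.9 CPM in ZnO libraries 1 to 3, and at 42.4, 51.5 and 51.0 CPM in control libraries 1 to 3. Neutrophil sums were lower in all ZnO libraries, as given above, and macrophage sums were 2117, 1982 and 1534 CPM in ZnO libraries 1 to 3, and 2093, 2559 and 2728 CPM in control libraries 1 to 3. The part of these cells in the slc30a1a values was not tested. With ZnO 2 and ZnO 3 both left out, the log2 fold change of slc30a1a was -0.14 (adjusted p = 0.822 by edgeR), in a fit that assumes the single ZnO library to vary as the controls do.

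**Figure D4:**
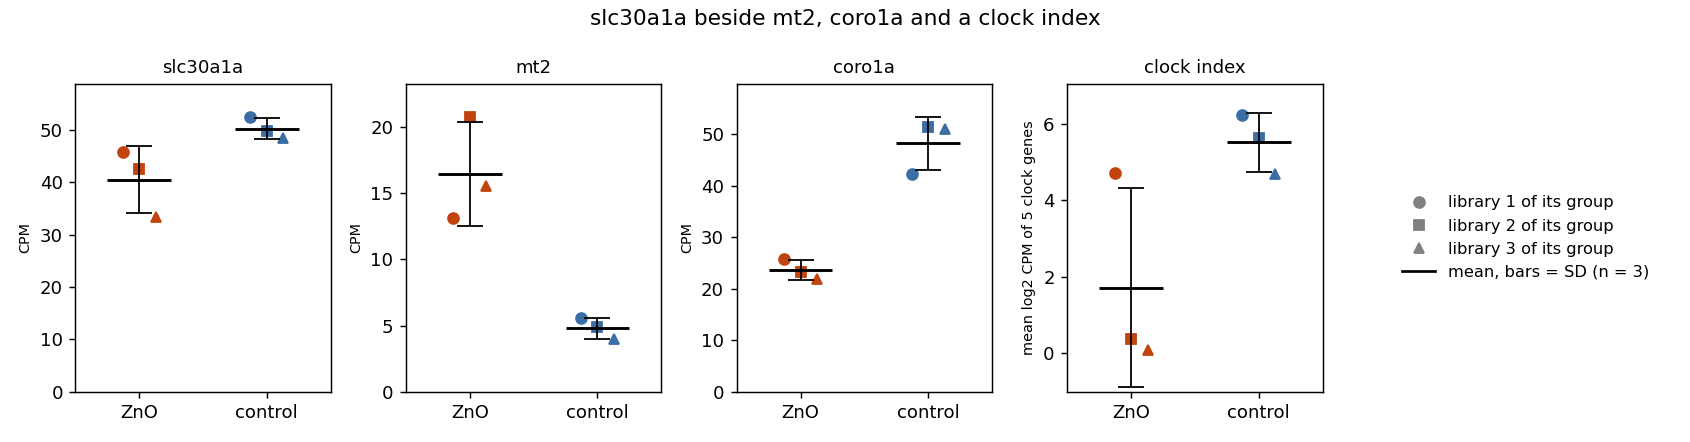
slc30a1a, mt2 and coro1a in CPM, and the clock index (mean log2 CPM of the 5 clock genes), per library; lines are means and bars SD (n = 3). slc30a1a and coro1a lie lower and mt2 higher in all ZnO libraries, while the clock index of ZnO 1 (4.71) lies beside that of control 3 (4.69).

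The entries whose log2 CPM over the 6 libraries was most like that of slc30a1a were ubl7b (Pearson's r = 0.999), pik3r5 (0.989) and pdk2a_1 (0.986), among 17394 entries ranked, those with a gene name and a mean of at least 1 CPM. All values come from the same 6 libraries, and 61 entries reached an r above 0.95, so the ranking only describes these libraries. For ubl7b, pik3r5 and pdk2a_1, the log2 fold changes were -0.27 ± 0.12, -0.49 ± 0.19 and -0.58 ± 0.26 (SE; edgeR). In all 3, each ZnO library lay below each control. None of the 3 passed the test.

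The importers, which work against the exporters, did not pass either. Of 14 slc39 genes written, 12 had an entry and 10 were tested, with a median log2 fold change of -0.08. By edgeR 0 passed, against 0.428% of all tested entries, and by DESeq2 0, against 4.51% of those it adjusted. Second entries were not counted here. Of these, slc39a1_1 stood at 9.97 ± 2.78 CPM in ZnO and 10.9 ± 2.84 CPM in control (SD, n = 3; log2 fold change -0.13 ± 0.25, SE; adjusted p = 0.851 by edgeR). At an unadjusted edgeR p under 0.05 stood 3 of the 10, against 15.9% of all tested entries. slc39a10 and slc39a6 encode plasma membrane importers that form a complex in mammals. slc39a10 stood at 10.5 ± 0.374 CPM in ZnO and 13.8 ± 0.560 CPM in control (SD, n = 3; log2 fold change -0.39 ± 0.12, SE; adjusted p = 0.179 by edgeR). slc39a6 stood at 27.2 ± 3.54 CPM in ZnO and 36.2 ± 3.17 CPM in control (log2 fold change -0.41 ± 0.13, SE; adjusted p = 0.193 by edgeR). With the clock covariate the log2 fold change of slc39a6 was -0.70 ± 0.18 (SE). For slc39a10, slc39a6 and also slc39a14, each ZnO library lay below each control. Thus 3 of the 10 tested importers did not overlap between groups, against 22.5% of all tested entries. slc39a4, the importer of the intestinal epithelium in mammals, had a log2 fold change of 0.73 ± 0.31 (SE; adjusted p = 0.299 by edgeR), and slc39a13, an importer of the secretory pathway, one of 0.25 ± 0.13 (SE; adjusted p = 0.399 by edgeR).

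Enzymes that need zinc in or beyond the secretory pathway, some of them loaded through ZnT5, ZnT6 and ZnT7, were listed beside slc30a5, slc30a6 and slc30a7. Of 23 written, 22 had an entry, 15 were tested, 0 passed by edgeR and 2 by DESeq2, and the median log2 fold change was -0.02. For comparison, edgeR called 0.428% of all tested entries, and DESeq2 4.51% of those it adjusted. At an unadjusted edgeR p under 0.05 there were 4 of the 15, against 15.9% of all tested entries. alpl, the alkaline phosphatase of bone, stood at 83.1 ± 18.7 CPM in ZnO and 58.2 ± 3.78 CPM in control (SD, n = 3; log2 fold change 0.51 ± 0.17, SE; adjusted p = 0.196 by edgeR). Without ZnO 2 the log2 fold change of alpl was 0.33, without ZnO 2 and ZnO 3 it was 0.14, and with the clock covariate 0.068 ± 0.20 (SE). alpi.1, an intestinal-type alkaline phosphatase, stood at 176 ± 11.8 CPM in ZnO and 275 ± 62.7 CPM in control (log2 fold change -0.64 ± 0.17, SE; adjusted p = 0.135 by edgeR, DESeq2 adjusted p = 0.0189). ca6, a secreted carbonic anhydrase, stood at 119 ± 17.6 CPM in ZnO and 73.1 ± 15.5 CPM in control (log2 fold change 0.71 ± 0.18, SE; adjusted p = 0.133 by edgeR, DESeq2 adjusted p = 0.0194). ace, a zinc peptidase, had a log2 fold change of -0.72 ± 0.28 (SE; adjusted p = 0.272 by edgeR). It stood at 16.1, 7.74 and 7.82 CPM in ZnO libraries 1 to 3, and at 16.7, 18.5 and 17.0 CPM in control libraries 1 to 3. ZnO 1 thus lay close to the controls, and the difference came from ZnO 2 and ZnO 3. Osteoblast markers had sums of 6917 to 8412 CPM in ZnO and 5033 to 7766 CPM in control. The largest part of these sums was col10a1a, at 7274 ± 737 CPM in ZnO and 6195 ± 1344 CPM in control (SD, n = 3). Of the 6 osteoblast markers, 0 passed by edgeR and 2 by DESeq2. All 6 had positive log2 fold changes, from 0.22 to 1.75 with a median of 0.39. The part of these markers in the alpl values was not tested.

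Manganese handling was listed beside slc30a10. Of 9 genes written, 8 had an entry and 7 were tested, and 1 passed by edgeR, against 0.428% of all tested entries. That gene was slc40a1, the iron exporter ferroportin, which rose to 39.0 ± 4.30 CPM in ZnO, against 20.9 ± 1.25 CPM in control (SD, n = 3; log2 fold change 0.90 ± 0.12, SE; adjusted p = 0.0368 by edgeR). Its call was lost in each fit without 1 library other than ZnO 1, where the adjusted p ran from 0.0669 to 0.123. In those fits slc40a1 had log2 fold changes of 0.79 to 0.94. The value was 0.79 with the clock covariate (adjusted p = 0.528 by edgeR) and 0.78 without ZnO 2 and ZnO 3 (adjusted p = 0.291 by edgeR). atp13a1, an endoplasmic reticulum ATPase, stood at 59.4 ± 2.96 CPM in ZnO and 78.6 ± 7.02 CPM in control (log2 fold change -0.40 ± 0.11, SE; adjusted p = 0.151 by edgeR). atp2c1, the Golgi calcium and manganese pump, had a log2 fold change of -0.20 ± 0.11 (SE; adjusted p = 0.432 by edgeR). slc39a14, a manganese importer, had one of -0.28 ± 0.17 (SE; adjusted p = 0.469 by edgeR), and slc11a2, a divalent metal importer, one of -0.05 ± 0.13 (SE; adjusted p = 0.882 by edgeR).

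No exporter was called under other settings either. In 16 alternatives, 0 of 157 member values passed. Many of these fits called few entries anywhere, against 111 in the edgeR fit of all 6 libraries. The clock covariate left 0, the fit without ZnO 3 had 12 and the replicate block 32. In such fits 0 exporter calls was nearly given in advance. More entries passed by DESeq2 (1186 of 26294 it adjusted), without a filter (405 of 38853) and without ZnO 1 (369 of 26654). Of these calls 0 were slc30, but at such shares few would be expected among 10 entries. These fits too say little about the exporters, and the 157 values are refits of the same entries. The log2 fold change of slc30a1a was negative in all 16, between -0.42 and -0.07, that of slc30a6 in all 16, between -0.38 and -0.17, and that of slc30a8 positive in all 16, between 0.09 and 0.37.

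**Figure D5:**
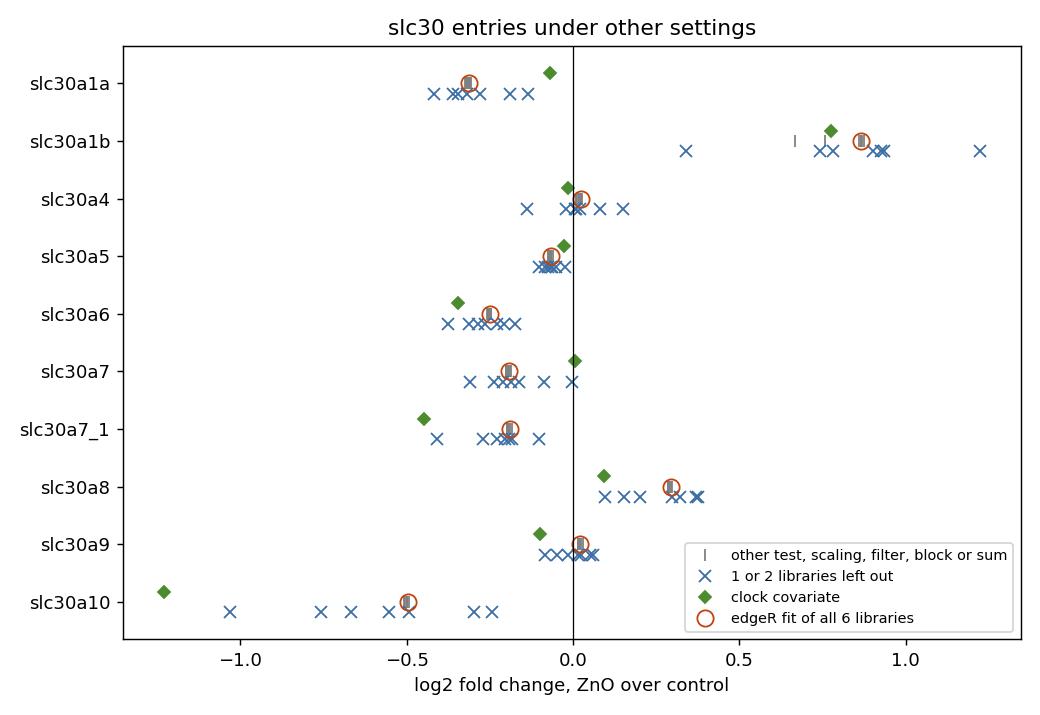
Log2 fold change of ZnO over control for the 10 tested slc30 entries in the edgeR fit of all 6 libraries (circles), with libraries left out (crosses), with the clock covariate (diamonds) and with the other tests, scalings, filters, block and summing (ticks). slc30a1a stays negative, between -0.42 and -0.07, and slc30a10 moves most, between -1.23 and -0.24.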

How the data were processed

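Values deposited by the authors are whole-number counts of reads for each gene entry, without normalization. The submitters' processing notes name the build GRCz11 and the tools HTSeq, BWA, cutadapt and DESeq2. The sources used here do not give versions, annotation, strand setting or the handling of spliced and multiply mapping reads. Without gene lengths of that annotation, levels were not compared between genes.

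All columns were matched to libraries by name. The filter on low counts (filterByExpr, minimum 10) kept 25962 entries holding 99.9% of counts. After TMM scaling (factors 0.981 to 1.02), all were tested together by robust quasi-likelihood F-tests in edgeR with group as the sole term, Benjamini-Hochberg adjustment and a threshold of 0.05. Levels are TMM-scaled CPM, log CPM used a prior count of 2, and intervals of fold changes are unadjusted. slc30a1b and slc30a10 passed the filter with counts near its minimum. The members, gene lists and tests were chosen with earlier results of these data known. Of the zinc-handling lists, members past the threshold and up to 4 with the smallest p are named. Of the marker lists, members past the threshold are named, with coro1a also per library. Further named are ins and pcsk1 and, as the largest parts of their sums, mpx, cd74a and col10a1a. Alternatives were DESeq2, limma-voom, RLE and no scaling, other filters, a replicate block, libraries left out, summed entries and a clock covariate. Scripts were tested on simulated data. No duplicate library was found. Versions were DESeq2 1.42.0, limma 3.58.1 and edgeR 4.0.16 in R 4.3.3, and scipy 1.17.1, pandas 2.3.3 and matplotlib 3.10.9 in Python 3.11.15.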

Additional observations from a re-analysis of the deposited data

How the results depend on the processing

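No slc30 entry passed in any of the 16 alternatives, and 8 of 157 member values changed sign. They were of slc30a4 (-0.14 to 0.15 with 1 library left out, -0.016 with the clock covariate), slc30a9 (-0.049 to 0.059 with 1 library left out, -0.083 without ZnO 2 and ZnO 3, -0.099 with the covariate) and slc30a7 (0.0049 with the covariate, -0.19 without it); the cause was not tested. Over all entries the 111 calls became 1186 with DESeq2, 55 with limma-voom, 405 without a filter, 66 with a mean CPM of at least 1, 0 with the clock covariate, and 12 to 369 with 1 library left out (12 without ZnO 3, 369 without ZnO 1). Without ZnO 2 and ZnO 3, an alternative chosen after seeing the data, there were 0. Deviations of same-numbered libraries correlated at 0.0143, -0.0490 and 0.0778, and 1 of 3 ZnO libraries correlated best with its own number. These values gave no sign of pairing by number, but they cannot exclude shared tanks, days or batches. With the replicate block 32 entries passed, 0 of them slc30, and mt2 and slc40a1 did not (adjusted p 0.0697 for both by edgeR). Their log2 fold changes were 1.76 and 0.89 with the block, beside 1.78 and 0.90 without it. Depth limits slc30a1b, slc30a2 and slc30a10.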
